A study of Cynoglossus semilaevis with 30 samples.

Results

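The size effect in the liver was set against the size effect in the ovary of Chinese tongue sole (Cynoglossus semilaevis), a flatfish whose females grow larger than males. The comparison used the 12 liver and gonad libraries of a series of 30 RNA-seq libraries from 5 tissues. For each gene, the log2 difference of large minus small females in liver was taken less the log2 difference of large minus small females in gonad. Genes with a mean of at least 1 CPM, the count scaled to the library total, in both tissues entered, which were 10288 of the 22292 genes in the table. The 4 groups were small liver, large liver, small gonad and large gonad, with 3 libraries each. All fish were females of the same age, 1.7 years, so that the groups within a tissue differ in size class and not in sex or age. Reproductive stage was not entered in the fit, so an effect of size cannot be told apart from one of stage. Each library was made from the pooled tissue of 2 fish, which gives 6 fish per size class. The labels do not state whether a liver pool and a gonad pool came from the same fish.

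In egg-laying fish, follicle cells of the growing ovary release oestradiol, which acts through oestrogen receptors in the liver. The liver answers with vitellogenin, the yolk precursor, and in many species with egg envelope proteins, which travel in the blood to the ovary. Oocytes take up vitellogenin by receptor-mediated endocytosis, cut it with cathepsins and store it as yolk, so the liver and the ovary carry different steps of the same process.

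Library totals were 7827127 to 9622397 counts in liver and 8661135 to 10504899 counts in gonad, and 3 counts in a library corresponded to 0.423 to 1.07 normalised CPM in liver and 0.138 to 0.226 in gonad. Liver markers summed to 129100 to 170700 CPM in the liver libraries and to 15.2 to 23.9 CPM in the gonad libraries. Oocyte markers summed to 9368 to 10340 CPM in small gonads, 8414 to 8650 CPM in large gonads and 2.01 to 13.3 CPM in liver, so both labels held. Markers of the exocrine pancreas, which in many fish lies within the liver, summed to 47070 to 186100 CPM in small and 147000 to 364500 CPM in large livers. Smooth muscle markers summed to 32.3 to 182 CPM in small against 319 to 336 CPM in large gonads, ovarian somatic markers to 16.3 to 38.1 and 53.9 to 55.8 CPM, and leukocyte markers to 82.3 to 129 and 158.3 to 167 CPM. In gonad the oocyte sum was lower and these 3 sums were higher in each large than in any small library. The 3 large gonad libraries were nearly alike, with a median SD of 0.097 on the log2 scale, against 0.22 in small gonad, 0.316 in large liver and 0.327 in small liver. A chi-square per gene and degree of freedom of 1.94 to 2.44 between pairs of large gonad libraries, against 10.6 to 34.7 in the other groups, lay above counting noise, and the libraries were kept as 3. Repeat libraries of 1 RNA would also exceed counting noise, so whether these 3 are separate pools of fish cannot be told from the data. The 4 groups share 1 estimate of the spread per gene, so every p-value, also those within liver, takes the 3 large gonad libraries as separate. With these 3 libraries summed to 1, the lone sample is assumed to vary like the other groups, and 28 genes remained called in the difference, all of them among the 1363 below.

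The size effect differed between liver and gonad in 1363 genes, 13.2% of those tested, by edgeR's quasi-likelihood F test with Benjamini-Hochberg adjustment at 0.05. It was higher in liver for 708 genes (6.88%) and lower in liver for 655 genes (6.37%). Within liver 1111 genes (10.8%) changed with size, 587 of them higher (5.71%) and 524 lower (5.09%) in large females. The liver p-values use the spread of all 4 groups. With each tissue fitted alone, 89 genes were called in liver and 2719 in gonad. The liver calls of hspa5, hyou1, sdf2l1, fasn and insig1 below were among those lost in that fit. So were those of the opposite genes anxa3, ascc3, stbd1 and fsd1l, and of fermt1, ip6k2, LOC103386749 and LOC103389013 among the shared genes. Also lost were those of esr1, ctsh, ahcy, LOC103397057, ndufa1, LOC103389004, stat5a, LOC103379696, ifi30a, fthl27, il1r2, LOC103384513, gfap and ptn. Within gonad 969 genes (9.42%) changed, 481 higher (4.68%) and 488 lower (4.74%) in large females. The 2 sets of changed genes met in 114 genes (1.11% of those tested), which are 10.3% of the liver calls and 11.8% of the gonad calls. Of these, 71 genes (0.69%) moved in opposite directions and differed between the tissues, and 43 (0.418%) moved the same way in both. Most differing genes were called in 1 tissue alone, with 524 called in liver and not in gonad, 432 in gonad and not in liver, and 334 in neither. Across the 10288 genes the liver and gonad effects had the same sign in 48% and a Pearson r of -0.0354, a description over genes, which are not independent replicates. The count of differing genes fell to 873 without small liver 2, 853 without small gonad 2, 798 without large liver 1, 869 without large liver 3, and 598, 584 and 545 without large gonad 1, 2 and 3, and was 2216 without small liver 3.

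**Figure D1:**
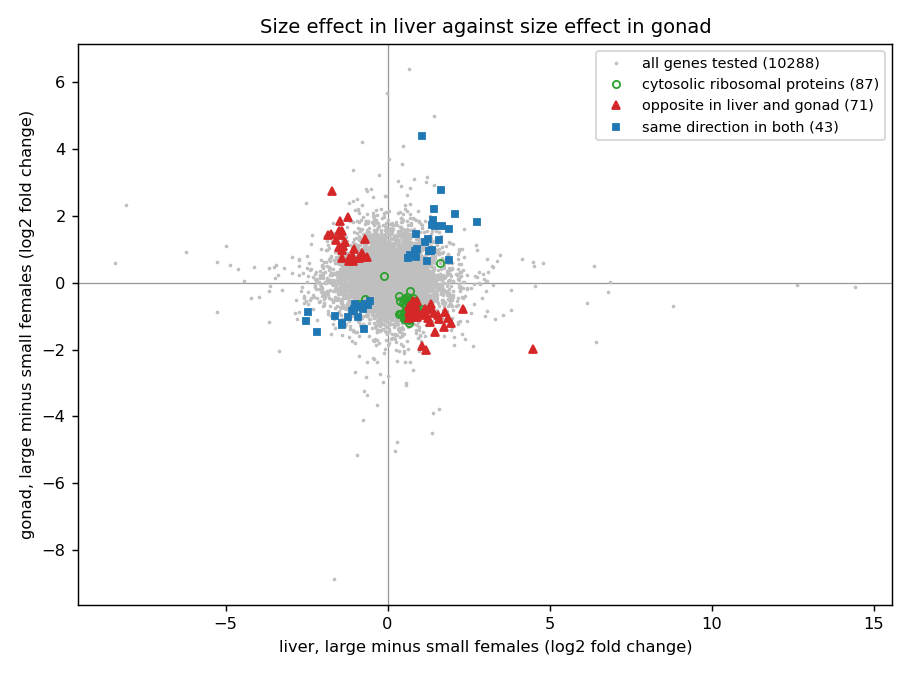
Each grey point is 1 of 10288 genes, with the log2 difference of large minus small females in liver on the x axis and in gonad on the y axis. Red triangles mark the 71 genes with opposite shifts, blue squares the 43 with shared shifts, and green circles the 87 ribosomal protein genes, most of which lie right of 0 in liver and below 0 in gonad.

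The tested vitellogenin rose in the livers of large females and was not called in their gonads. LOC103392297, a vitellogenin-2-like gene, was at 0.285, 2.40 and 4.04 CPM in small livers and at 109700, 7984 and 25170 CPM in large livers, 2 ranges that lie far apart. In gonad it stayed between 0.458 and 1.28 CPM in small against between 0.643 and 0.808 CPM in large females. Its liver effect was 14.44 on the log2 scale (SE 1.25, adjusted p = 6.55e-05) and exceeded its gonad effect by 14.57 (SE 1.49, adjusted p = 0.000195). In bulk tissue, fewer cells of a type and less RNA per cell cannot be told apart, here or below. Vitellogenins have near-identical copies, among which the authors' counting may have split reads, so the values of single copies are uncertain.

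The other yolk and envelope genes of the liver were too low in gonad to be tested and are given as levels. The vitellogenin vtg3 was at 5.55, 2.82 and 0.213 CPM in small livers and at 5311, 1002 and 1052 CPM in large livers. LOC103392840 went from 0.285, 1.69 and 2.77 CPM to 104700, 6463 and 19400 CPM, and LOC103380130 from 0.712, 4.93 and 6.38 to 20790, 2077 and 4421 CPM. LOC103380189 was at 0, 0 and 0.425 CPM in small and at 6564, 698 and 1613 CPM in large livers, and nots, an aspartic protease known from the liver of female zebrafish, at 0, 0 and 0.638 and at 946, 103 and 239 CPM. In all 5 genes no small library reached the lowest large one, and in all 5 large liver 1 was the highest and large liver 2 the lowest. Of the 37 genes listed as vitellogenins and egg envelope proteins, 11 were tested, of which 1 differed between the tissues, beside 13.2% of all genes.

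LOC103386340, a member of the solute carrier family 41 of magnesium transporters, followed the same liver pattern. It had no count in the 3 small livers and 115, 42.7 and 49.9 CPM in the large ones, at least 390-fold higher against a floor of 3 counts over the group. Its gonad levels overlapped, at 0.973, 1.503 and 1.34 CPM in small against 1.40, 1.02 and 1.19 CPM in large females.

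Oestrogen receptors rose in the livers of large females. esr2, estrogen receptor beta, was at 3.27, 7.75 and 15.1 CPM in small livers and 76.1, 70.0 and 69.0 CPM in large livers. The groups did not overlap, with a liver effect of 3.08 (SE 0.37, adjusted p = 0.000519) and a difference from gonad of 3.03 (SE 0.51, adjusted p = 0.00405). A second gene of that type, LOC103382744, was at 1.14, 3.38 and 4.04 CPM in small against 27.2, 15.2 and 21.8 CPM in large livers, with a difference from gonad of 3.39 (adjusted p = 0.00566). In gonad esr2 held between 3.58 and 5.28 CPM in all 6 libraries, with an effect of 0.05. esr1, estrogen receptor alpha in other fish, was at 1.28, 1.55 and 4.47 CPM in small against 12.2, 4.88 and 9.68 CPM in large livers. It rose in liver by 1.90 (adjusted p = 0.0253), a call lost without small liver 1 or 2 or large liver 1 or 3, and its difference from the gonad effect, 0.70, was not called (adjusted p = 0.545).

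The progesterone receptor-like gene LOC103391230 differed in the other tissue. In gonad it was at 19.4, 19.5 and 25.5 CPM in small against 7, 6.32 and 5.78 CPM in large females, without overlap, and fell by 1.75 (SE 0.20, adjusted p = 0.000576). In liver its 12.8, 17.9 and 13.2 CPM in small against 23.9, 20.6 and 22.7 CPM in large females did not overlap either, and the effect of 0.61 was not called (adjusted p = 0.0724). The difference was 2.36 (SE 0.28, adjusted p = 0.000642). The gene annotated as pgr, below the filter in liver, went the other way in gonad. It was at 0.229, 1.353 and 1.219 CPM in small against 2.585, 1.627 and 2.983 CPM in large females, without overlap. Of 22 listed steroid receptor genes, 12 were tested, and 3 had a higher effect in liver and 0 a lower one. The shares over all genes were 6.88% and 6.37%. Among the steroid enzymes hsd11b1l, related to the 11-beta-hydroxysteroid dehydrogenase that acts on cortisol, was at 8.26, 14.1 and 22.6 CPM in small against 53.9, 48.5 and 66.2 CPM in large livers. Its effect was 2.30 higher in liver than in gonad (adjusted p = 0.0073), where levels were 6.58, 11.95 and 11.5 CPM in small against 7.75, 7.53 and 7.89 CPM in large females.

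In gonad 0 of the 11 tested yolk and envelope genes rose and 1 fell, and 1 of the 20 tested yolk uptake genes rose and 1 fell, beside 4.68% and 4.74% of all genes. vldlr, the receptor family that binds vitellogenin, was at 317, 335 and 285 CPM in small against 338, 349 and 356 CPM in large gonads, and its difference between the tissues of -1.44 was not called (adjusted p = 0.187). lrp13, too low in liver to be tested, lay lower in large gonads. It was at 608.9, 813 and 604.5 CPM in small against 564, 538.7 and 565.2 CPM in large gonads. The zona pellucida gene LOC103394278, an egg envelope component, was at 913, 1235 and 1109 CPM in small against 606, 530 and 540 CPM in large gonads. It fell by 0.96 in gonad (adjusted p = 0.0245), a call lost without small gonad 2 or 3 or any large gonad library, and its difference from liver, 0.35, was not called. LOC103389891, a ZP3-like gene, and zpd had gonad levels of 363, 545 and 410 CPM and of 1684, 1743 and 1489 CPM in small females, and of 273, 242 and 254 CPM and of 1282, 1274 and 1245 CPM in large females. Neither difference from liver was called, at 0.96 for LOC103389891 and 0.75 for zpd. zar1l, an RNA-binding oocyte factor below the filter in liver, was at 728, 725 and 761 CPM in small against 363, 340 and 322 CPM in large gonads. Other oocyte genes below that filter did not all follow. bmp15 was lower, at 339, 318 and 289 against 267, 261 and 269 CPM. gdf9 overlapped, at 275, 255 and 214 against 221, 205 and 222 CPM. tdrd1 was higher, at 12.5, 12.9 and 14.2 against 20.3, 23.7 and 21.6 CPM.

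Of the 20 tested genes listed under yolk uptake and processing, 4 had a higher and 0 a lower effect in liver, beside 6.88% and 6.37% of all genes. The count of 4 was 2 without small liver 2, small gonad 2 or large liver 1 or 3, 1 without large gonad 3 and 0 without large gonad 1 or 2. ctsh, cathepsin H, was at 22.9, 17.9 and 24.7 CPM in small against 62.2, 41.6 and 41.4 CPM in large livers, with overlapping levels in gonad. Its effect was 1.43 higher in liver (adjusted p = 0.0194), a call lost without large gonad 1 or 2. napsa, a cathepsin D-like gene, was at 424, 476 and 590 CPM in small against 324, 325 and 335 CPM in large gonads, and at 61.6, 43.7 and 49.8 against 69.3, 72.3 and 71.4 CPM in livers. Neither tissue was called alone for napsa, and the difference of 1.06 (adjusted p = 0.0226) was lost without any 1 of the large gonad libraries. ctsa, the protective protein of lysosomal galactosidase, fell by 0.78 in gonad (adjusted p = 0.026), lost without small gonad 2 or any large gonad library, with a difference of 0.98 (adjusted p = 0.0352) that 7 of the 12 omissions ended. For LOC103397133, a cathepsin L1-like gene, the difference of 0.91 (adjusted p = 0.0484) was lost in 9 of the 12. Without rescaling of the FPKM values the differences of napsa, ctsa and LOC103397133 turned negative.

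**Figure D2:**
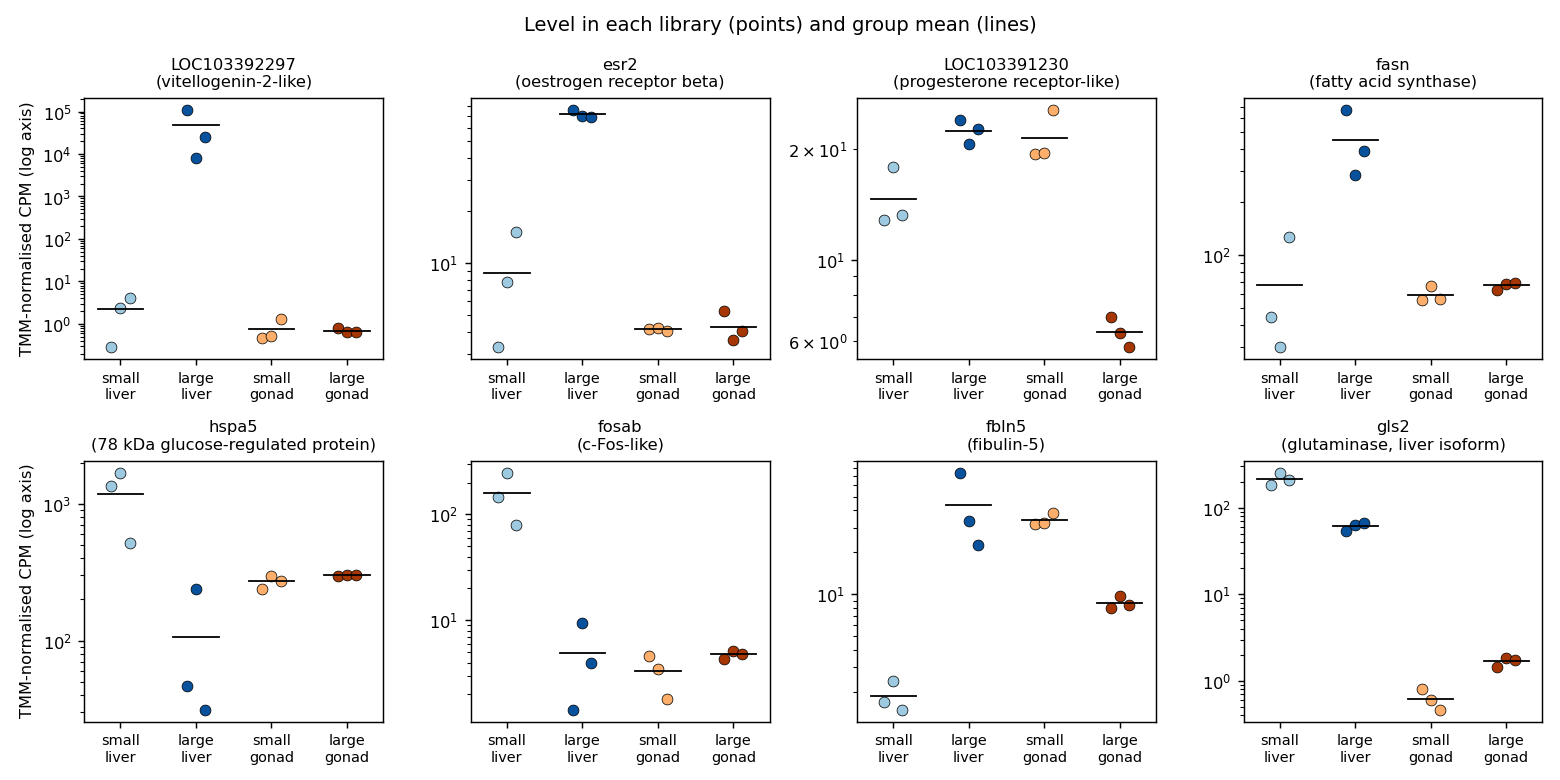
Normalised CPM on a log axis for 8 genes in each of the 12 libraries, with 1 point per library and a line at the mean of each group. The vitellogenin-2-like gene, esr2 and fasn lie higher in large than in small livers, hspa5 and fosab lie lower there, and fbln5 and gls2 shift to opposite sides in liver and gonad.

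Cytosolic ribosomal proteins, the structural parts of the ribosome, had a higher size effect in liver than in gonad. Of 87 tested, 80 had a higher effect in liver than in gonad and 0 a lower one, with a median difference of 1.48 against -0.04 over all genes. In liver 20 rose and 0 fell, in gonad 60 fell and 0 rose, and 14 did both. Over all genes 6.88% had a higher and 6.37% a lower effect in liver than in gonad. In liver 5.71% of all genes rose and 5.09% fell, and in gonad 4.74% fell and 4.68% rose. A rise in liver with a fall in gonad was called in 0.428% of all genes. Their summed level was 70330, 72030 and 67630 CPM in small against 134000, 83320 and 108600 CPM in large livers, and 41510, 55780 and 46520 CPM in small against 26940, 26150 and 24580 CPM in large gonads. The sums did not overlap in either tissue. The gonad fall stood beside the lower oocyte and higher somatic, smooth muscle and leukocyte sums of large gonads, whose part here and for the respiratory genes was not tested. The gonad falls numbered 31 without small gonad 3, 6 without small gonad 2 and 4, 2 and 1 without large gonad 1, 2 and 3. The liver rises numbered 3, 4, 1 and 1 without small liver 1 or 2 or large liver 1 or 3, 7 without any 1 of the large gonad libraries, and 65 without large liver 2. The count of 80 ranged from 56 to 81 over the same omissions and was 0 with the large gonad libraries summed, at a median of 1.46.

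The liver direction of the ribosomal genes turned with the scaling. As a share of raw counts the 87 genes took 5.48%, 5.76% and 4.06% in small and 4.44%, 4.79% and 3.93% in large livers, against 7.16%, 8.57% and 7.63% in small and 5.54%, 5.41% and 5.16% in large gonads. On log2(FPKM + 1) without rescaling, their median liver effect was -0.182 where that of all genes was -0.535, their median gonad effect was -0.47 against 0.28, and 3 differences were called higher and 1 lower. Among single genes, rpl31 of the large subunit was at 851, 786 and 779 CPM in small against 1568, 1044 and 1247 CPM in large livers, and at 389, 518 and 410 against 204, 212 and 186 CPM in gonads. Neither tissue overlapped for rpl31, and its gonad fall of 1.13 (adjusted p = 0.00789) was lost without large gonad 3. LOC103397057, encoding large subunit protein L35, was at 276, 291 and 245.9 CPM in small against 480, 401 and 416 CPM in large livers, and at 292, 406 and 338 against 170, 169 and 164 CPM in gonads. Its difference was 1.72 (adjusted p = 0.00291), and its liver rise of 0.67 (adjusted p = 0.0337), which is negative on unrescaled FPKM, was lost in 7 of the 12 omissions. Ribosomal protein genes have many near-identical copies, so single values are uncertain.

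Subunits of oxidative phosphorylation, the mitochondrial chain that makes ATP, fell in the gonads of large females. Of 85 tested, 27 had a higher effect in liver and 0 a lower one, beside 6.88% and 6.37% of all genes, with a median difference of 0.59. In gonad 31 fell and 0 rose, beside 4.74% and 4.68% of all genes. In liver 5 rose and 3 fell, beside 5.71% and 5.09% of all genes, with a liver median of 0.05. Opposite directions were called in 0, beside 0.69% of all genes. The gonad falls numbered 5 without small gonad 2, 17 without small gonad 3, and 4, 2 and 2 without large gonad 1, 2 and 3. The liver rises numbered 0 without small liver 2 or large liver 1, 1 without large liver 3, 2 without small liver 1 or any large gonad library and 8 without small liver 3. ndufb2, a complex I subunit, was at 42.1, 77.2 and 51.7 CPM in small against 27.7, 24.1 and 24.6 CPM in large gonads, and at 22.1, 20.4 and 22.3 against 28.6, 27.1 and 21.2 CPM in livers. The gonad groups of ndufb2 did not overlap and the liver groups did, with a difference of 1.41 (adjusted p = 0.0122). cox6c, of cytochrome c oxidase, had a difference of 1.64 (adjusted p = 0.0126), and ndufa1, of complex I, one of 1.32 (adjusted p = 0.0131) with livers at 19.1, 16.4 and 17.9 CPM in small against 38.9, 24.2 and 36.6 CPM in large females. The count of 27 fell to 9 without small liver 2 or small gonad 2, 17 without small gonad 3, 12 without large liver 1 or 3, and 7, 7 and 6 without large gonad 1, 2 and 3. It was 0 with the large gonad libraries summed. The mitochondrially encoded mt-co1 took 0.044%, 0.024% and 0.087% of counts in small and 0.538%, 0.47% and 0.469% in large gonads, opposite to the nuclear subunits there. In liver it took 0.919%, 1.55% and 2.23% of counts in small and 2.16%, 3.46% and 2.20% in large females, and these shares overlap. On the normalised scale mt-co1 did not overlap in liver. It was at 11800, 19320 and 37120 CPM in small against 65210, 60150 and 60810 CPM in large livers.

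Transcript length moved with the gonad effect. Over 5 bins of equal size from shortest to longest genes, with median lengths of 1013, 1654, 2266, 3127 and 4978 bases, the median gonad effect was -0.287, -0.082, 0.024, 0.096 and 0.188. The liver effect had medians of 0.048, -0.023, -0.024, -0.058 and -0.045 over the same bins, so that the difference ran from 0.312 to -0.237. Ribosomal protein transcripts had a median length of 573 bases. In the shortest bin without the ribosomal genes the median difference was 0.281. With a correction for length, chosen after seeing the data, 37 ribosomal differences were called higher and 0 lower, with medians of 0.84 for the difference, 0.50 in liver and -0.35 in gonad. For oxidative phosphorylation 5 were called higher and 0 lower. The called differences of ndufb2, cox6c and ndufa1 were lost with this correction. So were the gonad fall of rpl31 and the liver rise and gonad fall of LOC103397057. The differences of rpl31 and LOC103397057 stayed called. The part of length in these shifts beyond this correction was not tested.

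**Figure D3:**
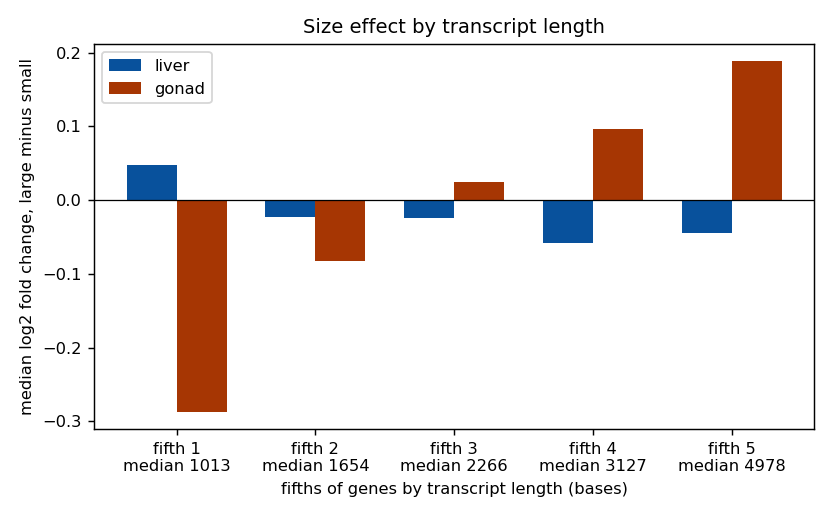
Bars give the median log2 size effect (large minus small) in liver and in gonad over 5 bins of the tested genes from the shortest to the longest transcript. The gonad medians climb from -0.287 to 0.188 and the liver medians stay between -0.058 and 0.048.

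Apart from the ribosome, the named genes with opposite shifts were of mixed function. Of the 44 genes higher in large livers and lower in large gonads (0.428% of those tested), 14 were cytosolic ribosomal proteins. Over all 44 the median effects were 0.92 and -0.88, and in the 27 genes with the reverse pattern (0.262%) they were -1.21 and 1. The 71 opposite genes became 12, 11 and 10 without large gonad 1, 2 and 3. They numbered 20 without small gonad 2 and 186 without small liver 3. In 70 of the 71 the size groups did not overlap in either tissue. Such separation largely follows from the calls in both tissues that picked these genes from the same libraries. Over all genes 25% did not overlap in liver and 47% in gonad, each tissue taken by itself. fbln5, fibulin-5 of the elastic fibres, was at 1.71, 2.40 and 1.49 CPM in small against 74.3, 33.6 and 22.7 CPM in large livers, and at 31.8, 32.3 and 38.3 CPM in small against 7.97, 9.71 and 8.40 CPM in large gonads. Its effects were 4.50 in liver (SE 0.41, adjusted p = 7.95e-05) and -1.97 in gonad (SE 0.32, adjusted p = 0.00459), the widest opposite pair of the 71 at 6.47 apart. LOC103393290, a 3-mercaptopyruvate sulfurtransferase-like gene of cysteine breakdown, was at 53.4, 46.4 and 73.2 against 182, 126 and 172 CPM in livers and at 53.3, 32.6 and 47.4 against 17.3, 15.9 and 14.6 CPM in gonads. Its effects were 1.47 and -1.48 (adjusted p = 0.00301 and 0.00341), nearly mirror images. stbd1, which binds glycogen, was at 27.5, 33.96 and 43.6 against 93.6, 92.4 and 53.5 CPM in livers and 6.47, 5.49 and 5.51 against 1.83, 0.930 and 1.61 CPM in gonads. fsd1l had effects of 1.08 in liver (adjusted p = 0.0229, lost without small liver 1 or 2 or large liver 3) and -1.90 in gonad.

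In the reverse direction, gls2, the liver-type glutaminase that frees ammonia from glutamine, was at 182, 255 and 211 CPM in small against 53.2, 63.3 and 66.2 CPM in large livers. In gonad it was low throughout, at 0.801, 0.601 and 0.464 CPM in small against 1.45, 1.86 and 1.74 CPM in large females. It fell by 1.82 in liver (SE 0.19, adjusted p = 0.000144), rose by 1.42 in gonad (SE 0.27, adjusted p = 0.00895), and the groups overlapped in neither tissue. anxa3, annexin A3, a calcium-dependent membrane-binding protein, was at 67.6, 58.2 and 23.6 against 9.29, 17.5 and 18.2 CPM in livers and 0.572, 0.376 and 0.870 against 4.25, 4.37 and 3.95 CPM in gonads. The anxa3 effects of -1.72 and 2.74 differed by -4.46 (adjusted p = 0.000858). LOC103396765, a neuropilin-1a-like receptor of blood vessel and axon guidance, had effects of -1.51 and 1.55, and ascc3, a helicase of DNA repair and ribosome quality control, of -1.47 and 1.85. For ascc3 the levels were 19.1, 24.1 and 12.6 against 6.07, 7.78 and 6.05 CPM in livers and 0.916, 1.05 and 1.28 against 3.93, 3.63 and 4.27 CPM in gonads. The gonad rises of gls2, ascc3 and LOC103396765 were lost on FPKM scaled by the median of ratios. In gonad these 4 genes were low. The gonad levels given for gls2, anxa3 and ascc3, at 0.376 to 4.37 CPM, all lay below the liver levels given, at 6.05 to 255 CPM. No small gonad of gls2, anxa3 or ascc3 was above 1.28 CPM.

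Protein-folding genes of the endoplasmic reticulum fell in the livers of large females. Of 83 tested genes of this secretory list, 15 had a lower and 5 a higher effect in liver than in gonad. In liver 18 fell and 3 rose, and in gonad 0 rose and 1 fell, the latter beside 4.68% and 4.74% of all genes. Over all genes 6.37% had a lower and 6.88% a higher effect in liver, and 5.09% fell and 5.71% rose there. The median difference was -0.43. The 18 liver falls became 9 without small liver 2, 10 without large liver 1, 8 without large liver 3 and 28 without small liver 3. hspa5, the chaperone BiP, was at 1348, 1695 and 517 CPM in small against 46.8, 238 and 31.2 CPM in large livers, and at 240, 298 and 274 against 299, 300 and 303 CPM in gonads. It fell by 3.48 in liver (SE 0.63, adjusted p = 0.00533) and differed from gonad by -3.63 (SE 0.83, adjusted p = 0.0155). hyou1, a BiP exchange factor, was at 134, 566 and 176 CPM in small against 46.4, 69.6 and 25.7 CPM in large livers, without overlap. sdf2l1, of a chaperone complex with BiP, fell by 1.86 in liver (adjusted p = 0.0057) and differed from gonad by -2.83 (adjusted p = 0.00427). The count of 15 fell to 10 without small liver 2, 7 without small gonad 2 or large liver 1, 5 without large liver 3, and 6, 7 and 6 without large gonad 1, 2 and 3. With the large gonad libraries summed it was 0, while 12 still fell in liver. The summed level of the 83 genes overlapped between the size classes in liver, at 11950, 21440 and 12130 against 13230, 12360 and 10850 CPM. Of 39 tested heat shock and folding genes, 8 had a lower effect and 1 a higher effect in liver, beside 6.37% and 6.88% of all genes. hspa5, described above, is among these 8, so they are not a group separate from the folding genes above. The count of 8 ranged from 2 without large liver 1 or 3 or large gonad 1 or 3 to 13 without small liver 3. It was 4 without small liver 1, 5 without small liver 2 or small gonad 3 and 3 without large gonad 2.

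Immediate early and stress-response genes, which switch on within minutes of a stimulus, showed the same liver direction. Of 24 tested, 9 had a lower and 0 a higher effect in liver than in gonad, with a median difference of -1.12. In liver 12 fell and 2 rose. Over all genes 6.37% had a lower and 6.88% a higher effect in liver, and 5.09% fell and 5.71% rose there. The 12 liver falls became 4 without small liver 1 or 2 or large liver 1 or 3, 7 without small gonad 3 or any 1 of the large gonad libraries, and 8 without small gonad 1 or 2 or large liver 2. fosab, encoding c-Fos, was at 146, 249 and 79.8 CPM in small against 1.43, 9.40 and 3.93 CPM in large livers, and at 4.64, 3.46 and 1.80 against 4.31, 5.11 and 4.87 CPM in gonads. The liver groups did not overlap, the liver fall was 4.86 (SE 0.52, adjusted p = 0.000208), and the difference was -5.39 (SE 0.70, adjusted p = 0.00105). cebpd, a transcription factor of the acute-phase response, was at 203, 232 and 117 against 16.4, 41.1 and 42.3 CPM in livers and differed by -2.65 (adjusted p = 0.00606). gadd45ga, a growth arrest gene, was at 109, 199 and 63.2 against 12.9, 23.3 and 15.1 CPM in livers and differed by -2.31 (adjusted p = 0.0108). The summed level of the 24 genes was lower in large than in small females in gonad too, at 2214, 2176 and 2429 against 1798, 1922 and 1872 CPM. In gonad 1 of them rose and 0 fell, beside 4.68% and 4.74% of all genes. As a share of counts the sums overlapped in gonad, at 0.382%, 0.334% and 0.399% against 0.37%, 0.397% and 0.393%. The count of 9 was 6 without small liver 1, small gonad 2, or large liver 1 or 3, and 5 without small liver 2 or any 1 of the large gonad libraries.

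Of 27 tested genes of fatty acid and sterol synthesis 5 rose and 1 fell in the livers of large females, beside 5.71% and 5.09% of all genes, and fasn and scdb were among the 5. The 5 became 3 without small liver 2 or large liver 3 and 8 without small liver 1. fasn, fatty acid synthase, was at 44.4, 29.9 and 127 CPM in small against 672, 286 and 393 CPM in large livers, and at 55.5, 66.4 and 56.3 against 63.3, 68.3 and 69.6 CPM in gonads. Its difference of 2.58 (SE 0.60, adjusted p = 0.0162) arose in liver, where the groups did not overlap and it rose by 2.75 (adjusted p = 0.00357). scdb, the desaturase that makes oleic acid, was at 5.69, 3.52 and 5.74 against 20.7, 30.6 and 13.6 CPM in livers, with a difference of 1.93 (adjusted p = 0.0179). srebf1, the transcription factor that drives both genes, differed by 1.72 (adjusted p = 0.00463), with gonads at 67.3, 66.1 and 75.0 CPM in small against 33.2, 31.6 and 33.0 CPM in large females and livers at 78.9, 57.6 and 53.6 against 117, 68.5 and 110 CPM. Its gonad fall of 1.09 (adjusted p = 0.00891) was lost without large gonad 2, and its liver effect of 0.62 was not called (adjusted p = 0.0692). insig1, which holds back that factor's processing, moved the other way in liver, at 278, 399 and 376 against 81.8, 141 and 156 CPM, with a difference of -1.68 (adjusted p = 0.0126). Over the 27 genes, 5 had a higher and 3 a lower effect in liver than in gonad, beside 6.88% and 6.37% of all genes. The 5 became 3 without small gonad 2 or 3, large liver 3 or any large gonad library and 8 without small liver 1, and the 3 became 1 without large liver 1 or any large gonad library.

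Of 15 tested lipoprotein and lipid transport genes 2 rose and 2 fell in liver, and 1 rose and 0 fell in gonad. The shares over all genes were 5.71% and 5.09% in liver and 4.68% and 4.74% in gonad. pltp, the phospholipid transfer protein of plasma lipoproteins, was at 31.5, 55.0 and 47.9 CPM in small against 0.715, 2.53 and 0.302 CPM in large livers. In gonad it was at 0.458, 0.301 and 0.638 against 0.754, 1.16 and 1.15 CPM, an effect of 1.09 that was not called (adjusted p = 0.157). The liver fall was 4.99 (SE 0.44, adjusted p = 6.55e-05) and the difference -6.09 (SE 0.65, adjusted p = 0.000286). LOC103389013, an apolipoprotein C-I-like gene, rose in both tissues, from 0.515, 0.601 and 0.174 CPM to 8.83, 9.57 and 8.35 CPM in gonad and from 3223, 3530 and 4708 CPM to 8274, 7587 and 8186 CPM in liver. Its gonad effect of 4.37 (adjusted p = 3.42e-05) exceeded its liver effect of 1.07 (adjusted p = 0.0271), a liver call lost without small liver 1 or 2, large liver 1 or 3 or any large gonad library. The difference of -3.30 was called (adjusted p = 0.00164). Over the 15 genes, 1 had a higher and 3 a lower effect in liver than in gonad, beside 6.88% and 6.37% of all genes. Without 1 library these counts ranged from 0 to 3 and from 2 to 5, both highest without small liver 3.

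Of 31 tested amino acid enzymes 7 fell and 2 rose in the livers of large females, beside 5.09% and 5.71% of all genes. A lower effect in liver than in gonad was called for 6 and a higher one for 2, beside 6.37% and 6.88%. The 7 liver falls became 4 without small liver 2, 3 and 2 without large liver 1 and 3, and the 6 became 3 without small liver 2, large liver 3 or large gonad 2 and 2 without large gonad 1 or 3. cth, which makes cysteine from cystathionine, was at 232, 124.4 and 159 CPM in small against 41.1, 42.7 and 67.4 CPM in large livers, and between 4.13 and 6.23 CPM in all 6 gonads. It fell by 1.77 in liver (adjusted p = 0.00175) and differed by -1.99 (adjusted p = 0.00584). ahcy, which clears S-adenosylhomocysteine earlier in the same pathway, was at 395, 367 and 518 against 1107, 610 and 819 CPM in livers and at 367, 329 and 303 against 207, 214 and 206 CPM in gonads. Its groups did not overlap in either tissue and its difference was 1.66 (adjusted p = 0.00887), while its liver rise of 0.99 (adjusted p = 0.0189) was lost without small liver 1 or 2 or large liver 1.

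**Figure D4:**
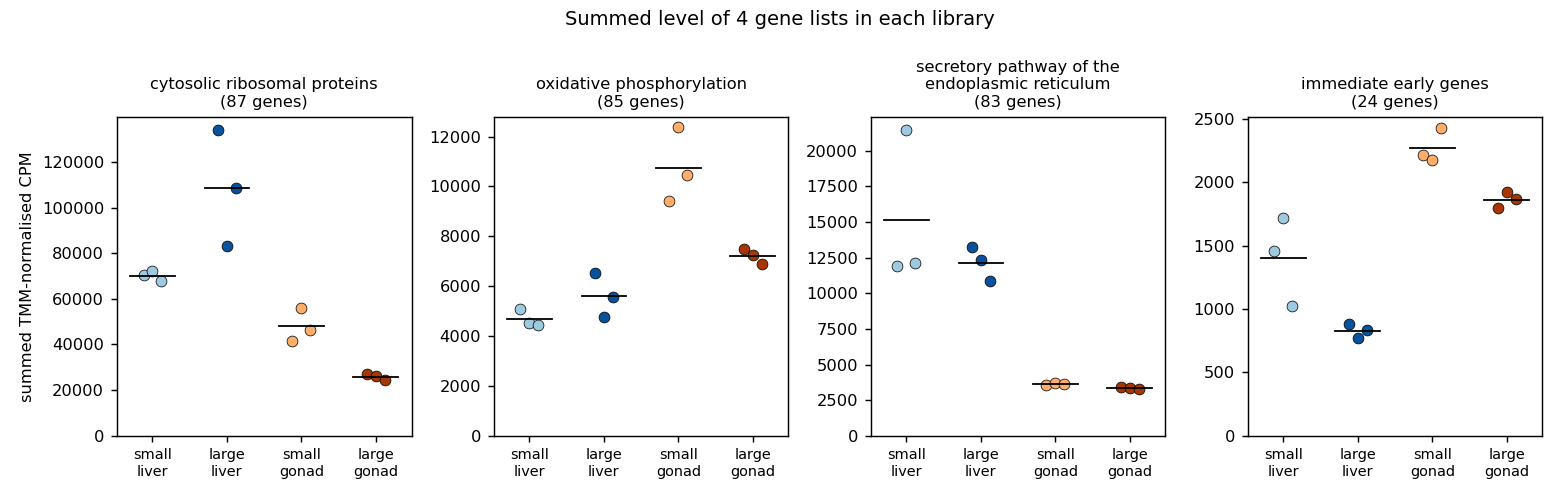
Summed normalised CPM of 4 gene lists in each of the 12 libraries, with 1 point per library, a line at each group mean and a linear axis from 0. Ribosomal proteins lie higher in large than in small livers and lower in large than in small gonads, and immediate early genes lie lower in large than in small females in both tissues on this scale, while their gonad shares of raw counts overlap.

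Several of the largest differences rested on genes near 0 in a group, where the fitted fold depends on the prior count. In gonad, ttc36, a repeat protein found in liver and kidney of mammals, had 1 count in the 3 small libraries and 160 in the 3 large ones, a ratio of 124 (exact 95% interval 22.0 to 4930, counting error only). Its large gonads were at 2.85, 2.65 and 2.30 CPM, and its livers overlapped at 79.2, 68.9 and 133 against 195, 104 and 151 CPM. xdh, xanthine dehydrogenase of purine breakdown, was at 0.229, 0.150 and 0.0580 CPM in small against 2.69, 2.18 and 3.67 CPM in large gonads, and at 193, 218 and 579 against 118, 184 and 276 CPM in livers. The gonad effect of xdh was 4.19 (adjusted p = 0.00485) and its difference -4.97 (adjusted p = 0.00344). On raw totals, liver markers as a list summed to 15.2 to 18.0 CPM in small and 20.8 to 23.9 CPM in large gonads, higher in each large library. On the normalised scale used for ttc36 and xdh, the 8 tested liver markers had a median gonad effect of 0.123. Of these 8, 3 lay below 0 in gonad and 0 were called there. Their part in the rise of ttc36 and xdh was not tested. bmp3, a secreted member of the BMP family that is below the filter in liver, had no count in small gonads and 19.3, 26.7 and 24.9 CPM in large ones, at least 382-fold higher, and was at 0 in 5 of the 6 livers.

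In liver, tsnaxip1 was at 0, 0.986 and 0.425 CPM in small against 72.9, 9.59 and 45.4 CPM in large females, with a difference of 8.21 (adjusted p = 0.00636). LOC103388616, a CUB and sushi domain gene, had 3 counts in small and 205 in large livers, a ratio of 111 (interval 37.3 to 540). LOC103384513, a TRIM39-like ubiquitin ligase, had 404 counts in small and 3 in large livers, 83.2-fold lower (interval 28.3 to 405). il1r2, the decoy receptor of interleukin-1, was at 65.9, 56.9 and 2.55 CPM in small against 0.715, 1.81 and 0.302 CPM in large livers, with a difference of -5.88 (adjusted p = 0.0154). For gfap and ptn, markers and growth factors of the nervous system, 1 library carried the values. gfap was at 0 in small livers and at 0, 11.9 and 0.302 CPM in large livers, at least 36.1-fold higher, and ptn at 0.357, 31.7 and 0.907 CPM in large livers, a ratio of 96.5 (interval 32.5 to 472). Both differences were lost without large liver 2.

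The pancreatic list had a median difference of 3.36 over its 10 tested members. Of these, 6 had a higher effect in liver and 0 a lower one, beside 6.88% and 6.37% of all genes. LOC103389004, a trypsin-like gene, was at 1939, 4072 and 13730 CPM in small against 56400, 15120 and 51070 CPM in large livers, and at 10.7, 4.06 and 9.69 against 1.94, 2.37 and 2.30 CPM in gonads. Its liver rise of 2.63 (adjusted p = 0.0241) was lost without small liver 1 or 2 or large liver 1 or 3, and its difference was 4.52 (adjusted p = 0.0108). The count of 6 fell to 4 without small liver 1, 2 without small liver 2 or small gonad 1 or 3, and 1 without large liver 1 or 3 or any large gonad library, and was 8 and 10 without large liver 2 and small liver 3. These markers moved with size beside each liver group above, and their part in those results was not tested. With scaling that left out egg and pancreatic genes, chosen after seeing the data, 1366 genes differed, 1321 of them among the 1363.

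Shared shifts were called in 43 genes. Of these, 24 (0.233%) were higher in large females in both tissues, with median effects of 1.36 in liver and 1.29 in gonad. The other 19 (0.185%) were lower in both, with medians of -1.04 and -0.86. Without large gonad 1, 2 and 3 the 24 became 2, 1 and 1, and the 19 became 0, 1 and 1. The 24 and the 19 became 6 and 8 without small gonad 2, and 71 and 67 without small liver 3. In 41 of the 43 the size groups overlapped in neither tissue, which again largely follows from the calls that picked them. LOC103385093, an extended synaptotagmin-1-like gene that tethers membranes, was at 4.56, 6.20 and 16.2 against 82.5, 38.3 and 56.9 CPM in livers and at 1.55, 0.677 and 1.57 against 4.25, 5.44 and 3.81 CPM in gonads. It rose by 2.76 in liver (adjusted p = 0.00289) and by 1.80 in gonad (adjusted p = 0.0283), the latter lost without any 1 of the gonad libraries. fermt1, kindlin-1 of cell adhesion, was at 0.997, 1.69 and 0.851 against 3.22, 2.17 and 6.65 CPM in livers and at 2.18, 3.31 and 3.66 against 20.7, 21.5 and 20.2 CPM in gonads. The gonad rise of fermt1 was 2.77 (adjusted p = 0.000582), and its liver rise of 1.67 (adjusted p = 0.0333) was lost without small liver 1, large liver 1 or 3 or any large gonad library. ip6k2, a kinase of inositol phosphates, rose by 2.10 and 2.06, lost in liver without small liver 1 or large liver 1 and in gonad without small gonad 1 or 2 or any large gonad library.

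Among the shared falls, slc38a3, a glutamine transporter, was at 65.9, 105 and 96.8 against 33.6, 34.5 and 33.9 CPM in livers and at 5.90, 4.36 and 3.48 against 1.83, 1.91 and 2.16 CPM in gonads. It fell by 1.39 in liver (adjusted p = 0.00289) and by 1.22 in gonad (adjusted p = 0.0103, lost without large gonad 1 or 2), and the difference of -0.18 was not called. Both slc38a3 and gls2, the glutaminase named above, fell in liver, while in gonad slc38a3 fell and gls2 rose. kitb, a receptor of the stem cell factor, was at 29.5, 33.7 and 14.5 against 2.50, 5.61 and 5.14 CPM in livers and at 12.5, 18.6 and 12.1 against 7.11, 5.81 and 6.56 CPM in gonads. Its liver fall was 2.50 (adjusted p = 0.0018), and its gonad fall of 1.14 (adjusted p = 0.0316) was lost without small gonad 2 or any large gonad library. LOC103386749, a potassium-chloride cotransporter-like gene, fell by 2.19 and 1.47, the latter lost without large gonad 1 or 3. trabd2b, a metalloprotease that acts on Wnt proteins, fell by 2.45 in liver and 0.87 in gonad, and its difference of -1.58 was called (adjusted p = 0.0169), with the gonad call lost without small gonad 2 or any large gonad library. trabd2b and LOC103389013 were the 2 genes that moved the same way in both tissues and still differed.

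Matrix genes also had positive medians in both tissues. The 38 tested collagen and matrix genes had medians of 0.89 in liver and 0.82 in gonad, against -0.02 and 0.00 over all genes, and a median difference of 0.08. In liver 7 rose and 0 fell, beside 5.71% and 5.09% of all genes, and in gonad 1 rose and 0 fell, beside 4.68% and 4.74%. The effect of 1 differed between the tissues, beside 13.2% of all genes. Without small liver 3 the liver, gonad and difference counts were 24, 11 and 9. The liver count became 3 or 4 without small liver 1 or 2, any large liver or any large gonad library, the gonad count 5 without small liver 1 or small gonad 3, 2 without small liver 2 and 0 without small gonad 1 or 2 or any large gonad library. The difference count was 0 without small liver 2, small gonad 1 or 2, large liver 1 or 3 or any large gonad library. In gonad this stood beside the higher smooth muscle and somatic marker sums of large females, whose part was not tested.

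The growth hormone and insulin-like growth factor axis, which drives body growth from the liver, had 2 of 12 tested genes with a called difference, beside 13.2% of all genes. In liver 3 rose and 2 fell, beside 5.71% and 5.09% of all genes, and in gonad 0 were called, beside 9.42%. igf1 was at 61.4, 150 and 185 CPM in small against 125, 184 and 287 CPM in large livers, which overlap, and at 2.69, 1.43 and 2.67 against 2.15, 2.74 and 2.16 CPM in gonads. Its difference of 0.55 was not called (adjusted p = 0.545), nor were those of igf2, at -0.22, or of the binding protein igfbp2, at 1.48 (adjusted p = 0.134). stat5a, which carries the growth hormone signal, was at 20.2, 44.7 and 59.8 against 89.0, 96.0 and 97.7 CPM in livers, and its difference of 1.54 (adjusted p = 0.0481) was lost in 10 of the 12 omissions. LOC103379696, a receptor of the binding protein IGFBP-3, had a difference of 1.01 (adjusted p = 0.0413), lost in 8 of the 12 and negative on unrescaled FPKM.

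Of 22 tested interferon and antigen-presentation genes, 5 had a higher and 0 a lower effect in liver, beside 6.88% and 6.37% of all genes. The count of 5 was 3 without small liver 1 or 2 or small gonad 3, 2 without small gonad 2 or large gonad 2, and 1 without large liver 1 or large gonad 1 or 3. ifi30a, a lysosomal thiol reductase of antigen processing, was at 67.2, 43.7 and 74.7 against 211, 145 and 127 CPM in livers, and its difference was 1.74 (adjusted p = 0.00816). Leukocyte markers summed on raw totals to 459 to 721 CPM in small and 460 to 804 CPM in large livers. On the normalised scale all 6 tested leukocyte markers lay above 0 in liver, with a median effect of 0.585 and 1 called higher. Their part in these results was not tested. fthl27, a ferritin heavy chain that stores iron, was at 967, 684 and 1323 against 2193, 1950 and 2452 CPM in livers and at 1294, 1368 and 1459 against 860, 931 and 897 CPM in gonads. On the normalised scale its groups did not overlap in either tissue, and its difference was 1.77 (adjusted p = 0.00869). That call was lost on unrescaled FPKM. rbp5, a cellular retinol-binding protein, was at 76.7, 82.9 and 118 against 138, 160 and 174 CPM in livers and 12.3, 22.9 and 12.01 against 7.81, 6.46 and 6.33 CPM in gonads. Its difference was 1.96 (adjusted p = 0.00594), and its gonad fall of 1.19 (adjusted p = 0.0149) was lost without small gonad 2 or any large gonad library.

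The 57 tested genes of DNA replication and mitosis had a median difference of 0.91, with medians of 0.65 in liver and -0.25 in gonad, and 32 of them lay above 0 in liver and below 0 in gonad. Over the 57, 1 difference was called higher in liver and 0 lower, beside 6.88% and 6.37% of all genes. The count of higher ones was 33 without small liver 3 and 7 without large liver 2. Of 76 tested mitochondrial ribosomal proteins 7 had a higher and 3 a lower effect in liver, beside 6.88% and 6.37% of all genes. Without 1 library the 7 ranged from 3 without large gonad 2 to 10 without small gonad 1, and was 4 without small liver 2, small gonad 2, large liver 1 or large gonad 1 or 3.

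**Figure D5:**
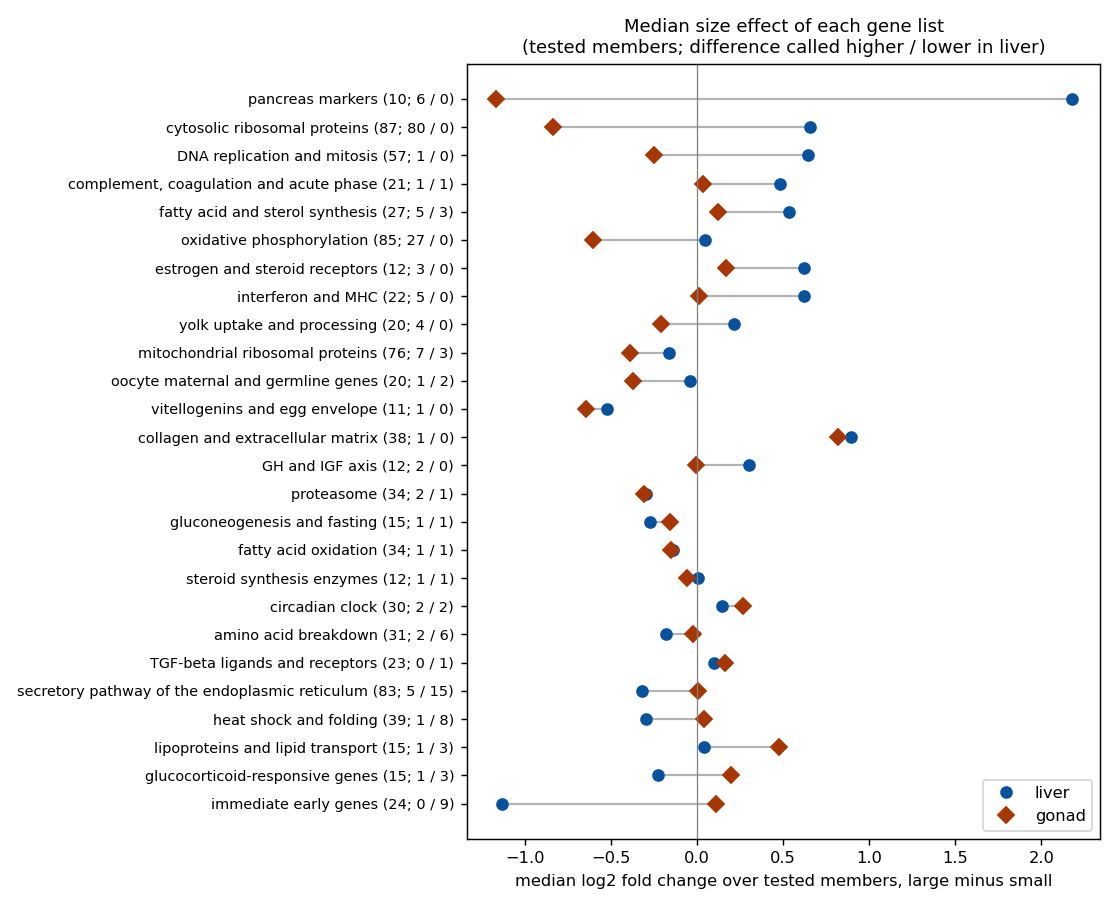
Median log2 size effect in liver and in gonad of each gene list with at least 10 tested members. The number of tested members and the called differences in each direction stand beside the name. Ribosomal proteins lie apart to opposite sides, with medians of 0.66 in liver and -0.84 in gonad, and the collagen list lies above 0 in both.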

How the data were processed

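Total RNA was extracted with Trizol and checked for quality, per the labels' protocols, and libraries followed the standard Illumina protocol. The authors deposited 1 table with an expected count and an FPKM value per gene and library, the expected count being their estimate of reads per gene and the FPKM that estimate per length and depth. The submitters' processing notes name edgeR, and name no aligner or genome build. Of the deposited counts 2% were not whole, and all were rounded. The table held 0 value columns that no label mapped.

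Of 22292 genes, 20373 carry NCBI gene numbers, of which 19502 matched RefSeq. Symbols came from the table for 11120 genes and from RefSeq for 3668, and 7504 had none. No sequences are shown.

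In R 4.3.3, edgeR 4.0.16 fitted TMM-scaled counts of the 4 groups together, with a mean of 1 CPM in both tissues as filter, and tested the liver, gonad and difference contrasts by its two-sided quasi-likelihood F test with Benjamini-Hochberg adjustment over 10288 genes at 0.05. An SE is the absolute log2 value over the square root of F. The TMM factors were 0.331 to 0.8 in liver and 1.54 to 2.1 in gonad. Of the genes left out, 1859 were too low in gonad alone, 3659 in liver alone and 6486 in both. CPM values are normalised, except the marker sums, which use raw totals. Floors are 3 counts over a group, and exact 95% intervals cover counting error only. Nothing in the labels says more of how pools were drawn, so p-values measure the spread between these libraries.

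Named genes were the 8 largest differences in each direction with a mean of 5 CPM in a group, up to 8 opposite and shared genes per direction, up to 4 genes per list with the smallest p, and fixed genes of egg production and growth. bmp3, mt-co1 and the genes too low in 1 tissue are given as levels. Members and lists were chosen with earlier results of these data known, and list memberships were corrected after values were seen, so that no list counts as independent support.

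In simulated counts with 200 changed genes among 10288, the same fit recovered 9% of 2-fold and 70% of 4-fold changes with 6 false calls. The simulation gave every group the same spread per gene. In the data the median SD ran from 0.097 in large gonad to 0.327 in small liver, so the simulation cannot tell how many false calls this unequal spread brings. The labels give no pairing, and the numbers were not taken as pairs. Same-numbered liver and gonad libraries of a size class deviated with correlations of -0.021 to 0.144, and differently numbered ones with -0.104 to 0.052. Liver and gonad of the same fish need not deviate together, so these values cannot tell whether pools shared fish. Alternatives used DESeq2 1.42.0, limma 3.58.1, other filters, scalings and sample sets, and each library left out in turn.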

Additional observations from a re-analysis of the deposited data

Results flagged for a closer look

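The size effect differed between liver and gonad, by the test of the difference itself, in 1363 genes. The values below are log2 differences of the liver effect less the gonad effect, given for the named genes past the threshold, with no explanation.

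Among genes of egg production and steroid action the difference was 14.57 for LOC103392297, 12.72 for LOC103386340, 3.39 for LOC103382744, 3.03 for esr2 (LOC103382676), 2.36 for LOC103391230 and 2.30 for hsd11b1l. Among lysosomal genes it was 1.43 for ctsh, 1.06 for napsa, 0.98 for ctsa, 0.91 for LOC103397133 and 1.74 for ifi30a. Ribosomal and respiratory genes gave 1.80 for rpl31, 1.72 for LOC103397057, 1.64 for cox6c, 1.41 for ndufb2 and 1.32 for ndufa1.

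Genes with opposite effects gave 6.47 for fbln5, 3.20 for stbd1, 2.97 for fsd1l, 2.95 for LOC103393290, -4.46 for anxa3, -3.33 for ascc3, -3.25 for gls2 and -3.06 for LOC103396765. Chaperone and immediate early genes gave -3.63 for hspa5, -2.92 for hyou1, -2.83 for sdf2l1, -5.39 for fosab, -2.65 for cebpd and -2.31 for gadd45ga.

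In lipid and amino acid metabolism the values were 2.58 for fasn, 1.93 for scdb, 1.72 for srebf1, -1.68 for insig1, -6.09 for pltp, -3.30 for LOC103389013, -1.99 for cth and 1.66 for ahcy. In growth signalling and storage they were 1.54 for stat5a, 1.01 for LOC103379696, 1.77 for fthl27 and 1.96 for rbp5. Genes near 0 in a group gave -5.69 for ttc36, -4.97 for xdh, 8.21 for tsnaxip1, 7.06 for LOC103388616, -7.13 for LOC103384513, -5.88 for il1r2, 9.53 for gfap and 6.75 for ptn. Fitted values of genes at 0 to 3 counts in a group, LOC103386340 among them, depend on the prior count. gfap and ptn were lost without large liver 2. LOC103389004 gave 4.52 and trabd2b -1.58.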

How the results depend on the processing

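Counts are genes called. The length correction and the FPKM scaled by the median of ratios were chosen after seeing the data. The number of differing genes was 1365 with median-of-ratios scaling, 1371 without egg genes in the scaling and 1357 with robust spread. It was 5227 on log2(FPKM + 1) and 4941 with a pseudocount of 0.1, where values were not rescaled and the median of all genes was -0.535 and -0.792 in liver and 0.28 and 0.359 in gonad, 2377 with all 30 libraries, and 28 with the large gonad libraries summed. Higher in liver were 450 without a filter, 1103 with DESeq2, 97 and 84 on the 2 FPKM scales, 1225 with all 30 libraries and 11 with the large gonad summed. Lower in liver were 5130 and 4857 on FPKM, 1152 with all 30 libraries and 17 summed. Opposite genes numbered 32 without a filter, 39 with filterByExpr, 218 with DESeq2, 118 with voom weights by group, 449 and 191 on FPKM, 13 with each tissue alone, 325 with all 30 libraries, 0 summed and 43 with the length correction. Genes higher in both numbered 14 without a filter, 61 with DESeq2, 39 with voom, 10 and 8 on FPKM, 5 alone, 91 with all 30 libraries, 0 summed and 10 on FPKM scaled by the median of ratios. Genes lower in both numbered 9, 65, 7, 76 and 0 without a filter, with DESeq2, alone, with all 30 libraries and summed. In liver 1681 were called with DESeq2, 709 with voom, 4644 and 4841 on FPKM, 89 alone, 2163 with all 30 libraries and 341 summed. In gonad 585 were called at 5 CPM, 1843 with DESeq2, 2634 with voom, 568 on log2(FPKM + 0.1), 2719 alone, 2140 with all 30 libraries, 6 summed and 478 on FPKM scaled by the median of ratios. The cause of these moves was not tested, except that summing leaves fewer samples.

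With the replicate number as a block 1097 genes differed and 37 were opposite, and with same-numbered libraries as a replicate block of 1 pool 924 differed and 429 were lower in liver.

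Leaving out 1 library gave 545 to 2216 differing genes, 288 to 1186 higher, 257 to 1030 lower, 10 to 186 opposite, 1 to 71 higher in both, 0 to 67 lower in both, 444 to 2177 in liver and 164 to 1446 in gonad. Of 52 named genes with a called difference, 44 kept it without each library in turn and 16 with the large gonad libraries summed.

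On unrescaled FPKM these signs turned, of which the liver effect of ctsa and the difference of ip6k2 were not called in the fit reported. With pseudocounts of 1 and 0.1 the difference was -0.207 and -0.169 for LOC103379696, -0.144 and -0.18 for ctsa, -0.0852 and -0.1 for napsa and -0.206 and -0.229 for LOC103397133, the liver effect -0.57 and -0.607 for ctsa and -0.141 and -0.141 for LOC103397057, and the difference of ip6k2 -1.04 with a pseudocount of 1. Without a turn of sign, further called differences were lost with both pseudocounts. These were ctsh, rpl31, LOC103397057, ndufb2, cox6c, ndufa1, scdb, srebf1, ahcy, rbp5, fthl27, ifi30a, stat5a, gfap and ptn. On FPKM scaled by the median of ratios, the called differences of xdh, il1r2, trabd2b, gfap and ptn were lost. The gonad calls of gls2, ascc3, LOC103396765, xdh, LOC103385093, slc38a3 and kitb were lost there too.

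Depth limits genes at 3 counts or fewer in a group, whose fitted folds are not bounds.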
